A study of Homo sapiens with 6 samples.

Results

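Ribosome biogenesis factors are the nucleolar proteins that transcribe, modify, cut and fold ribosomal RNA (rRNA) and load ribosomal proteins onto it. They were examined in A549 cells, a human lung adenocarcinoma line, after transient silencing of NME2. A list of 37 factors, drawn up by name, was followed on 6 Affymetrix HG-U133 Plus 2.0 arrays. Each gene was represented by its brightest probe set, a group of short oligonucleotides reading 1 transcript, among those annotated with a single gene symbol. Such a probe set was found for 33 of the 37, and all 33 were bright enough to be tested, among 12406 tested genes. BOP1, PPAN, NOP56 and GNL3 were named only on probe sets that carry several symbols and are not analysed here. Several probe sets were often found for a gene, 73 in all for these 33.

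Cells of both groups were A549. In 3 arrays the cells had received duplexes of small interfering RNA (siRNA) directed at NME2, which encodes a nucleoside diphosphate kinase that also binds DNA, and in 3 arrays control duplexes. Suppliers of the duplexes are named differently in the series text and in the methods. How long after transfection RNA was isolated is not given in the sources used here. Biological replicates are mentioned in the series text without saying whether cultures or transfections were separate, so the p-values rest on the spread among these arrays, part of which may be technical. The silenced transcript, read by a probe set annotated to NME2 and the NME1-NME2 read-through, was low in every array labelled NME2-depleted. Its signals were 1920, 3676 and 3216, against 17862, 19389 and 21045 in control arrays, a mean log2 difference of -2.78 (SE 0.19, limma adjusted p = 0.00032).

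Ribosome production starts in the nucleolus, where RNA polymerase I makes 1 long precursor of most rRNAs. Small nucleolar ribonucleoproteins (snoRNPs) guide its chemical modification, the small subunit processome folds and cuts the part that becomes the 40S subunit, and a separate series of factors matures the 60S subunit. The pathway follows cell growth, and many of its genes are textbook targets of MYC, which with MAX binds the DNA letters CACGTG, the E-box. NME2 was itself described as a factor that binds the MYC promoter.

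The E-box was a feature that many of these promoters had in common, apart from any array value. Promoter windows from RefSeq (GRCh38.p14), reaching from 250 bases before to 50 bases after each annotated start, were found for 32 of the 37 genes. CACGTG, which reads the same on both strands, was found in 14 of these 32 (43.8%). It was found in 8.77% of all 27305 genes with a window and in 12.8% of the 10115 tested genes with one. The share was 27.6% of 116 other genes of the pathway and 6.35% of 63 cytosolic ribosomal protein genes. The letters CCGGAAG, bound by ETS factors and searched on both strands, were found in 13 of the 32 (40.6%) and in 21.8% of tested genes. Their share was 43.1% of the 116 other genes of the pathway and 34.9% of the 63 ribosomal protein genes, so it was not particular to the list. A TATA box, searched as TATAAA on both strands, was found in UTP20 alone. The 14 E-boxes began between 64 bases before and 36 bases after the start, and 9 of them lay after it, against 312 of 2821 sites over all windows.

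Windows of 30 bases around the E-box (capitals) are shown for 6 genes. They were chosen to set BYSL, which had the largest difference of the 33 factors on the arrays, beside factors with smaller ones. All are written 5′ to 3′ on the strand of the gene.
BYSL, chr6:41921515-41921544, plus strand: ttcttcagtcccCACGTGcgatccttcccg
FBL, chr19:39846356-39846385, minus strand: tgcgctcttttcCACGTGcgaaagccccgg
UTP4, chr16:69132621-69132650, plus strand: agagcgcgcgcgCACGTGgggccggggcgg
UTP20, chr12:101280083-101280112, plus strand: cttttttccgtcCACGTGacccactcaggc
DDX21, chr10:68956604-68956633, plus strand: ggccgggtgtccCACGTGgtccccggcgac
PES1, chr22:30591880-30591909, minus strand: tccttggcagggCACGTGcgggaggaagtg
The core letters were the only ones searched, and a match is not evidence of binding. In BYSL, FBL and PES1 the E-box lay just after the annotated start, at bases 29, 7 and 14. In UTP4, UTP20 and DDX21 it lay before it, by 16, 10 and 31 bases.

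None of the 33 factors passed the threshold after NME2 silencing (limma, Benjamini-Hochberg adjusted p under 0.05 over all 27307 tested probe sets). Among all tested genes 0.540% passed, 0.395% lower and 0.145% higher. At an unadjusted p under 0.05, 4 factors were lower (BYSL, WDR74, NOP58 and UTP15) and 2 higher (RRS1 and NIP7), which is 18.2% of 33. The share among all genes was 15.0%, with 7.75% lower and 7.25% higher. The methods' t-test gave 2 lower and 0 higher at its unadjusted threshold (BYSL and WDR12), and 0 after Benjamini-Hochberg adjustment. These 2 make 6.06% of the list, against 12.9% of all genes by the same unadjusted test, 6.32% lower and 6.55% higher. The median log2 difference, NME2-depleted minus control, was -0.06, beside 0.000644 for all tested genes, and differences ran from -0.55 to 0.32. A lower mean was seen in 20 of 33 factors, or 60.6%, against 49.8% of all genes. In 7 factors the 3 depleted signals all lay below the 3 control signals, and in 0 they all lay above. These 7 make 21.2% of the list, where groups did not overlap for 20.6% of all genes, 10.1% lower and 10.4% higher. For each of these 7 the two-sided exact permutation p was 0.1, the smallest that 3 against 3 arrays can give.

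The data also bound the changes. The 95% interval of the difference lay within 1.5-fold in either direction for 30 of 33 factors, or 90.9%, against 71.5% of all tested genes and 91.3% of the 8244 genes in the same range of brightness. BYSL, WDR74 and RRS1 were the 3 whose interval reached further.

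**Figure D1:**
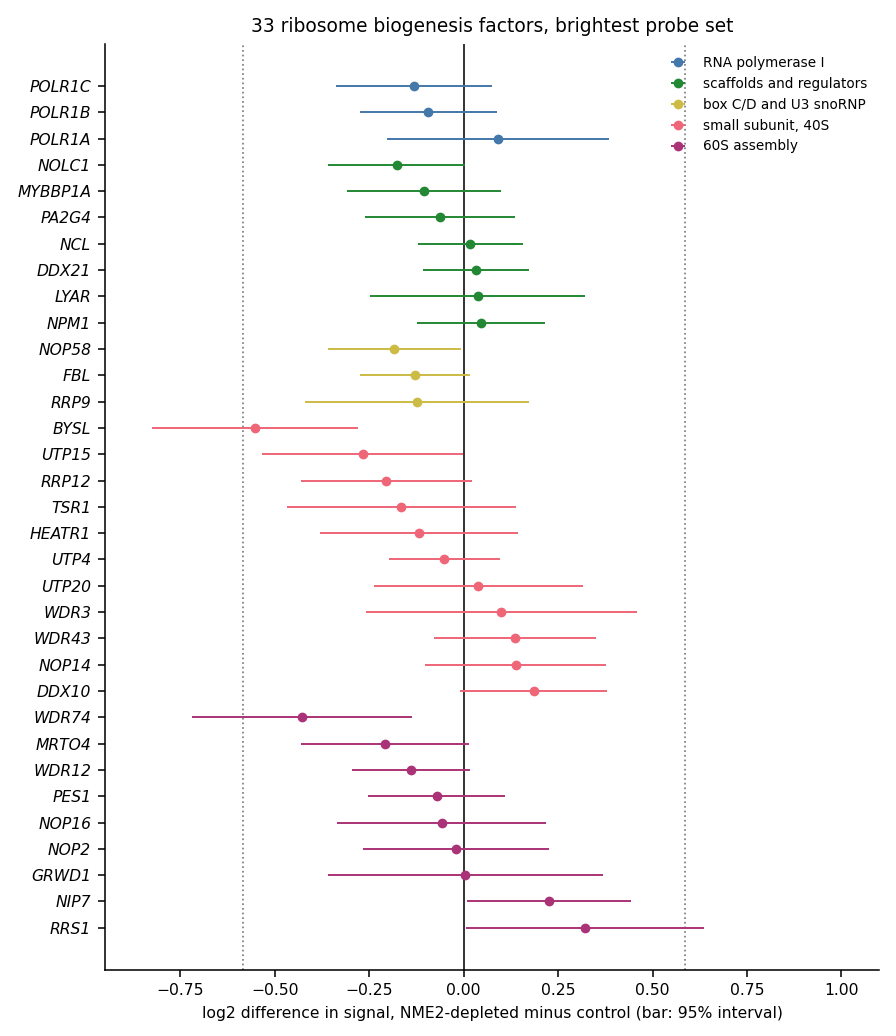
Log2 differences of 33 ribosome biogenesis factors, NME2-depleted minus control, with 95% intervals from limma (horizontal axis) and genes in rows, coloured by role. Dotted lines mark 1.5-fold. BYSL, at -0.55, is the lowest and RRS1, at 0.32, the highest, and only BYSL, WDR74 and RRS1 cross a dotted line.

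RNA polymerase I was represented by its 2 largest subunits, encoded by POLR1A and POLR1B, and by POLR1C, which is shared with RNA polymerase III. For POLR1A the depleted signals were 431.5, 493.8 and 517.5 and the control signals 410.1, 437.0 and 509.8. The groups overlapped (log2 difference 0.09, SE 0.13). POLR1B read 1373, 1285 and 1307 in depleted and 1443, 1448 and 1339 in control cells, with 1 depleted array above the lowest control. Its difference was -0.09 (SE 0.08, limma adjusted p = 0.688). POLR1C read 1117, 1099 and 960.5 against 1108, 1191 and 1173, a difference of -0.13 (SE 0.09), and depleted replicate 1 lay above control replicate 1. Without depleted replicate 3 the POLR1C difference was -0.06, and with each array left out that of POLR1A ran from 0.02 to 0.18. Other probe sets of all 3 genes included at least 1 with the opposite sign.

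The nucleolar scaffolds had near-equal signals in both groups. Nucleolin (NCL), an abundant nucleolar protein that binds precursor rRNA, had signals of 12167, 11587 and 12576 in depleted and 12149, 12070 and 11645 in control arrays. The depleted mean was 12110 ± 497 and the control mean 11955 ± 271 (SD, n = 3), a log2 difference of 0.02 whose 95% interval ran from -0.12 to 0.16. Nucleophosmin (NPM1), a histone chaperone and the main component of the granular nucleolus, read 23784, 25059 and 28008 against 23266, 25151 and 25916. Its difference was 0.05, with an interval from -0.12 to 0.22, and its other 2 probe sets had differences of -0.0099 and -0.0023. Both signs turned negative when each array was centred on its median, to -0.03 and -0.0021.

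NOLC1 (Nopp140), a chaperone of snoRNPs, had the lowest p of this role group. Its signals were 3594, 3576 and 3287 in depleted and 4321, 3912 and 3616 in control cells, so the groups just failed to overlap (log2 difference -0.18, SE 0.08, adjusted p = 0.392). A second probe set of NOLC1 gave 1198, 1184 and 1073 against 1467, 1433 and 1484, a wider gap (-0.35, SE 0.08, adjusted p = 0.112), and the remaining probe set gave -0.04. Without control replicate 1 the brightest probe set gave -0.11. MYBBP1A, a MYB-binding nucleolar protein, had depleted signals of 904.2, 881.7 and 905.1 and control signals of 907.9, 1040 and 950.8 (-0.11, SE 0.09). These groups did not overlap, with depleted replicate 3 just below control replicate 1, and without control replicate 2 the difference was -0.05. PA2G4 (EBP1), a growth regulator that binds ribosomes, read 2499, 2613 and 2853 against 2824, 3021 and 2488 (-0.06, SE 0.09), and the order of its arrays was mixed. LYAR, a nucleolar growth regulator, and DDX21, an RNA helicase of rRNA transcription and processing, had differences of 0.04 and 0.03.

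Transcripts of all 3 tested factors of the box C/D and U3 snoRNPs had a lower mean in depleted cells, by small amounts. Fibrillarin (FBL), the methyltransferase of box C/D snoRNPs, had signals of 11463, 12253 and 12240 in depleted and 12397, 13420 and 13534 in control arrays, and the groups did not overlap. Its difference was -0.13 (SE 0.07, limma adjusted p = 0.441). NOP58, a core protein of the same particles, read 4377, 4418 and 5062 against 5167, 5581 and 4971, with depleted replicate 3 above the lowest control. Its difference was -0.18 (SE 0.08, limma adjusted p = 0.367). RRP9, a protein of the U3 snoRNP, read 558.8, 570.9 and 605.7 against 655.5, 732.6 and 519.7, and control replicate 3 lay below all depleted arrays (-0.12, SE 0.13). The RRP9 difference was -0.01 without control replicate 2 and -0.26 without control replicate 3.

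The largest difference of the whole list was in the small subunit branch. BYSL (bystin), a factor of late 40S maturation, had signals of 838.9, 701.5 and 707.1 in NME2-depleted and 1287, 1045 and 975.2 in control cells. Every depleted array lay below every control array. The means were 749.2 ± 77.8 and 1102 ± 163 (SD, n = 3), 1.47-fold lower (log2 difference -0.55, SE 0.12, 95% interval from -0.82 to -0.28). It missed the threshold over all probe sets (limma adjusted p = 0.0904), and it has a single probe set on the array. With each array left out in turn its difference ran from -0.64 to -0.44 and its adjusted p from 0.110 to 0.252.

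UTP15, part of the processome subcomplex that acts on rRNA as it is transcribed, read 491.3, 567.1 and 476.3 in depleted and 662.3, 623.2 and 560.5 in control arrays. Depleted replicate 2 lay just above control replicate 3, and the difference was -0.27 (SE 0.12, limma adjusted p = 0.385). The second probe set of UTP15 gave -0.31 (adjusted p = 0.552). The RNA helicase DDX10 leaned the other way, with 8895, 7676 and 7228 against 7563, 6620 and 6694 (0.19, SE 0.09, adjusted p = 0.406), and its groups overlapped. Without depleted replicate 1 the DDX10 difference was 0.10. RRP12, which takes part in export of pre-ribosomes, had -0.20 and groups that did not overlap. The GTPase-like 40S factor TSR1 had -0.17, and its 3 other probe sets were all higher, from 0.02 to 0.31. The remaining processome proteins HEATR1 (-0.12), UTP4 (-0.05), UTP20 (0.04), WDR3 (0.10), WDR43 (0.14) and NOP14 (0.14) had overlapping groups. Of the 11 factors of this branch 6 had a lower and 5 a higher mean, and the median was -0.05.

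**Figure D2:**
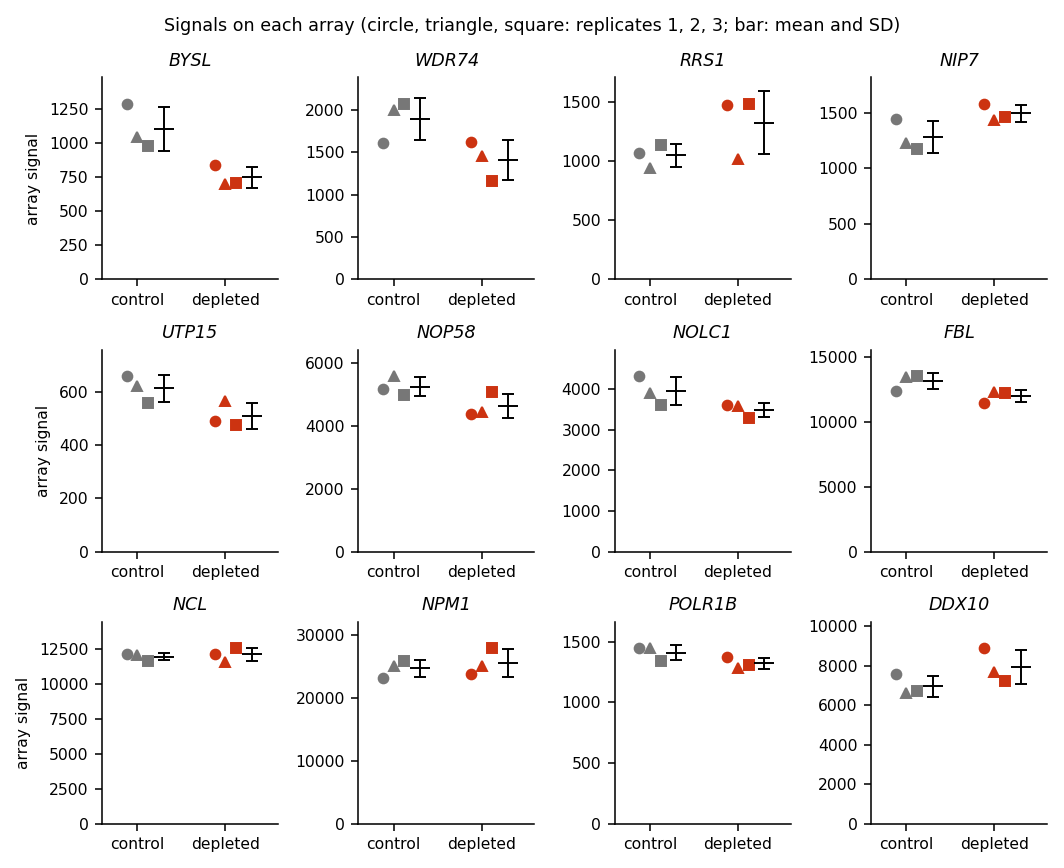
Array signal on a linear scale from 0 (vertical axis) for 12 factors in control (grey) and NME2-depleted (red) cells. Circles, triangles and squares are replicates 1, 2 and 3, and the bar beside them spans 1 SD either side of the mean. BYSL separates most, from 1102 to 749.2, whereas NCL and NPM1 have nearly the same signals in both groups.

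Factors of the 60S subunit held differences of both signs. WDR74, a nucleolar protein of 60S maturation, read 1625, 1459 and 1160 in depleted and 1615, 1999 and 2073 in control cells. Depleted replicate 1 lay just above control replicate 1, whereas numbers 2 and 3 were far apart (log2 difference -0.43, SE 0.13, limma adjusted p = 0.201). A second probe set of WDR74 had tighter groups that did not overlap, at 1553, 1424 and 1472 against 1723, 1568 and 1675, and a smaller difference of -0.16. The probe sets of WDR74 thus shared a direction and differed in size. Without control replicate 2 the second probe set was the brighter one and the value for the gene was -0.20.

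RRS1, which helps bring the 5S particle into the 60S subunit, had the largest difference upwards. Its signals were 1474, 1018 and 1486 in depleted and 1072, 939.9 and 1137 in control arrays, and depleted replicate 2 lay within the control range (0.32, SE 0.14, limma adjusted p = 0.379). Without that array the difference was 0.50. NIP7, a 60S processing factor, read 1578, 1432 and 1464 against 1445, 1224 and 1170 (0.23, SE 0.10, adjusted p = 0.367). Depleted replicate 2 lay below the highest control, and a second probe set of NIP7 gave 0.02. Of the PeBoW complex, which processes rRNA of the large subunit, WDR12 had -0.14 with groups that did not overlap and PES1 had -0.07. A dimmer probe set of WDR12 went the opposite way, at 0.63 (adjusted p = 0.346). MRTO4, a relative of the ribosomal stalk protein, had -0.21 and groups that did not overlap, and NOP16 (-0.06), the rRNA methyltransferase NOP2 (-0.02) and the RPL3 chaperone GRWD1 (0.0044) had overlapping ones.

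**Figure D3:**
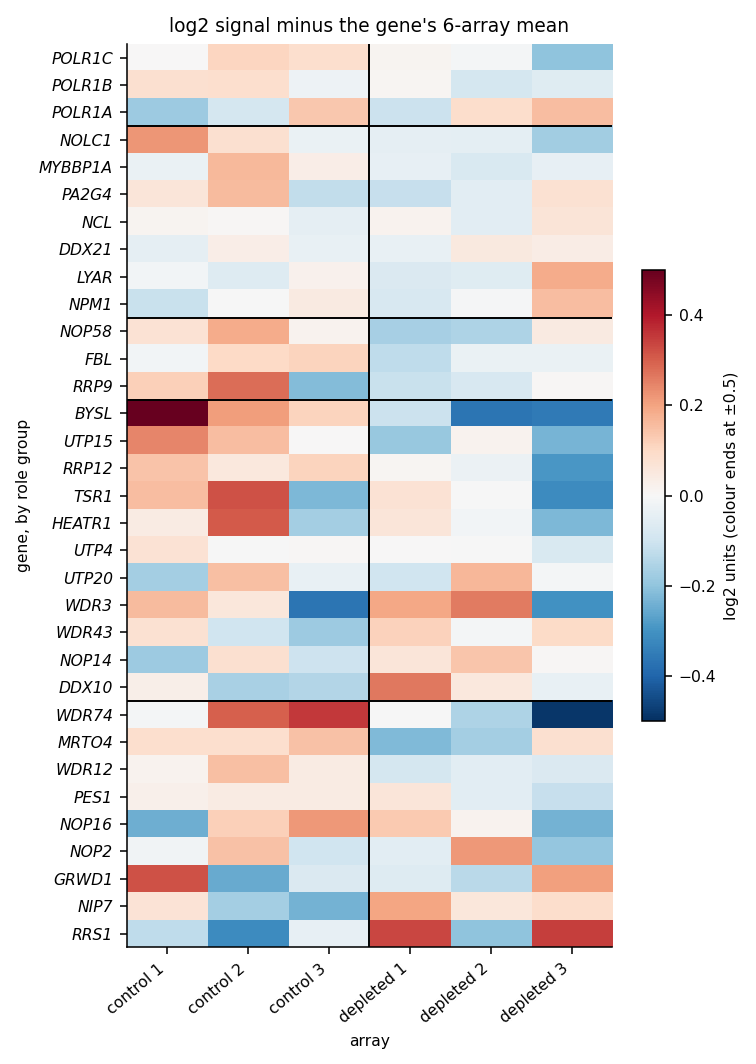
Log2 signal of each factor (rows, grouped by role, black lines between groups) on each array (columns) minus the mean of the gene over 6 arrays. Red is higher and blue lower, and 82.3% of the values lie within 0.2 of 0. BYSL is the row with red in all 3 control columns and blue in all 3 depleted columns most clearly.

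The array level of the list as a whole moved little. The median factor, after each gene was centred on its mean over 6 arrays, stood at -0.04, -0.03 and -0.04 in depleted replicates 1 to 3. In control replicates 1 to 3 it stood at 0.03, 0.08 and -0.03 on the same log2 scale. Control replicate 3 was thus level with the depleted arrays, and control replicate 2 was the highest, with 24 of 33 factors above their own mean. Without control replicate 2 the median difference was -0.01 instead of -0.06, and without depleted replicate 1 it was -0.10. Within groups the factors were about as variable as other genes of their brightness, with a median SD of 0.12 log2 units against 0.11.

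Probe sets of the same gene often disagreed in sign. Several tested probe sets were available for 19 factors, and in 10 of them all had the same sign. Of 29 probe sets other than the brightest, 14 had the sign of the brightest and 0 passed the adjusted threshold of limma, which 0.396% of all tested probe sets passed. NOLC1, UTP15, RRP12, WDR74, MRTO4, HEATR1, MYBBP1A, PA2G4 and UTP4 were lower by every tested probe set, and NIP7 was higher by both of its own. Signs were mixed for the 3 polymerase genes, NPM1, LYAR, DDX21, TSR1, WDR12 and NOP16.

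**Figure D4:**
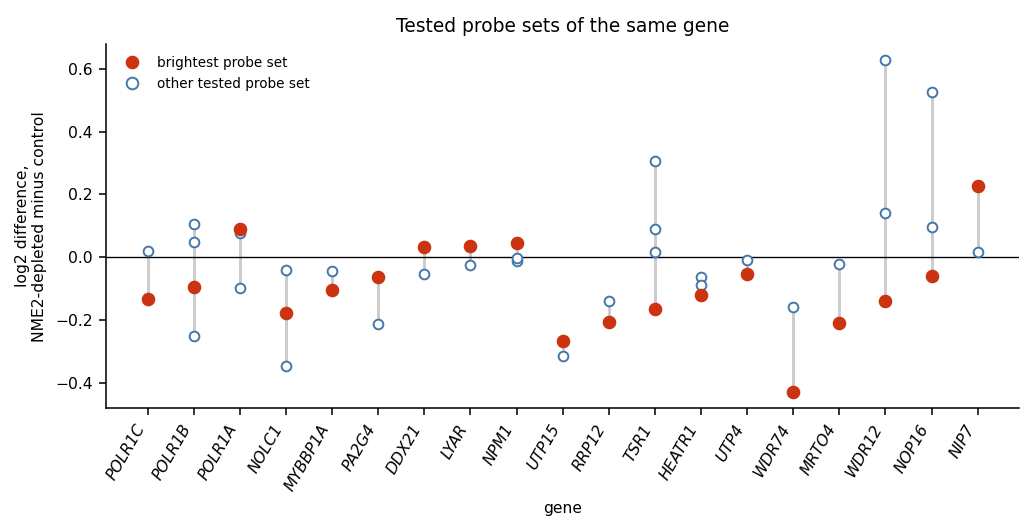
Log2 differences, NME2-depleted minus control (vertical axis), of every tested probe set of the 19 factors with more than 1. Filled red points are the brightest probe set and open points the others. In 9 genes the points lie on both sides of 0, with the widest spread for WDR12, from -0.14 to 0.63.

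The E-box was then set against the array values. The 13 tested factors with the letters in their promoter window had a median log2 difference of -0.05, and the 16 with a window that lacked them had -0.06. The ranges were from -0.55 to 0.14 and from -0.43 to 0.23. MYC itself had a signal of 3954 in depleted and 4227 in control cells, a difference of -0.10 (SE 0.08, limma adjusted p = 0.674). Of 13 tested regulators of MYC and rRNA synthesis 0 passed, and at an unadjusted limma p under 0.05 SIRT7 was lower and CDKN2A higher, which is 15.4% of them against 15.0% of all genes. SIRT7, a deacetylase that promotes RNA polymerase I transcription, read 1947, 2027 and 1621 in depleted and 2299, 2421 and 2657 in control arrays, which did not overlap (-0.40, SE 0.10, limma adjusted p = 0.113). The probe set annotated to CDKN2A, a locus known to be deleted in A549, read 98.8, 131.4 and 202.7 against 31.2, 87.2 and 43.0 (2.82-fold higher, limma adjusted p = 0.149). These dim signals lay around the filter of 71.7, and with the locus deleted they cannot be taken as its transcript.

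Another 125 tested genes of the same pathway stood outside the list. None passed the adjusted threshold of limma. At an unadjusted limma p under 0.05, 13 were lower and 5 higher, or 14.4% against 15.0% of all genes. The methods' t-test gave 10 lower and 5 higher at its unadjusted threshold, or 12% against 12.9% of all genes. A lower mean was seen in 87 of 125 and the median was -0.05. Closest to the threshold was RRP1B, a nucleolar 60S factor, with 2422 in depleted and 3017 in control cells (log2 difference -0.32, SE 0.08, adjusted p = 0.114), followed by POP5, a subunit of RNase P and RNase MRP (-0.26, adjusted p = 0.153). The exonuclease XRN2 had -0.22, the rRNA acetyltransferase NAT10 -0.36, the helicase DDX49 -0.23 and RRP1 -0.38. Among genes of RNA polymerase I transcription the shared subunit gene POLR1D had 0.17 and POLR1F -0.22, and among H/ACA snoRNP genes GAR1 had 0.18 and NHP2 -0.12.

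Cytosolic ribosomal proteins, whose output must match that of the assembly factors, are the cargo of this pathway. None of 53 tested genes passed, 11 had a lower mean, and the median was 0.03. At an unadjusted limma p under 0.05 only RPL36 was higher (0.17, adjusted p = 0.299), and 0 were lower. This is 1.89% of the ribosomal proteins, where 15.0% of all genes were past the same threshold. They were far brighter, with a median signal of 28403 against 799 for all tested genes. After centring, their median rose with the replicate number, at -0.08, -0.01 and 0.16 in depleted and -0.15, 0.0046 and 0.09 in control replicates. The fit counted this shared movement as spread within groups, so the low share cannot be read as fewer changes. The medians of the lists are given side by side, and the difference between lists was not tested.

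**Figure D5:**
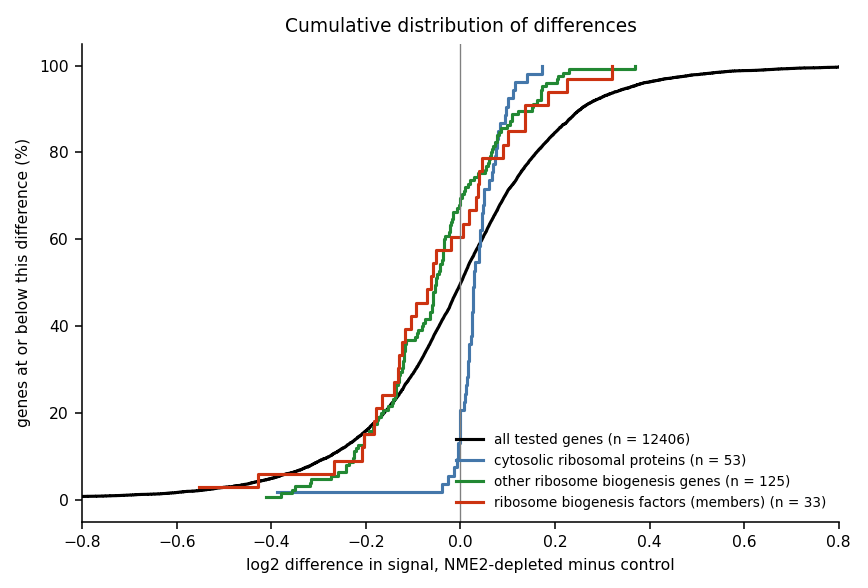
Cumulative share of genes (vertical axis, percent) at or below a log2 difference, NME2-depleted minus control (horizontal axis, shown from -0.8 to 0.8). Lines are all 12406 tested genes, 53 cytosolic ribosomal proteins, 125 other genes of the pathway and the 33 factors. The 33 factors and the 125 other genes cross 0 at 60.6% and 69.6%, and all tested genes at 49.8%.

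Other features differed between the groups, not all of them in every array. The ratio of 3′ to 5′ signal of ACTB, a sign of RNA quality, was 1.33 to 1.40 in depleted and 1.20 to 1.30 in control arrays, and that of GAPDH overlapped. All 15 proliferation genes had a lower mean in depleted cells, with a median of -0.25, where 49.8% of all genes had a lower mean. After centring, the median proliferation gene stood at 0.04, -0.16 and -0.26 in depleted replicates 1 to 3. In control replicates 1 to 3 it stood at 0.24, 0.21 and -0.08, so depleted replicate 1 lay above control replicate 3. Of the 15 genes 1 passed, the mitotic kinase AURKB, which fell (-1.17, limma adjusted p = 0.0312), where 0.540% of all genes passed. PLK1 and MCM3, next by p, had -0.37 and -0.33 with groups that did not overlap. Groups did not overlap for 5 of the 15, or 33.3%, all lower, against 20.6% of all genes, 10.1% lower. All 13 tested interferon-response genes had a lower mean in depleted cells, with a median of -1.45. In 12 of them, or 92.3%, the groups did not overlap, against the same 20.6% of all genes. MX1 (-3.01), IRF9 (-1.11) and IFITM2 (-0.62) fell (limma adjusted p = 0.0379, 0.0386 and 0.0307). These 3 of 13 passed, against 0.540% of all genes. Both lists were chosen with earlier results of these data known. After centring, the median interferon gene stood at 1.79, 0.03 and 0.45 in control replicates 1 to 3 and at -0.87, -0.42 and -0.77 in depleted ones. Without control replicate 1, the highest, the median of the factors was -0.08, beside -0.06 with all arrays. The part of these features in the small shift of the factors was not tested. Epithelial keratins were bright, with KRT18 at 29604 and KRT8 at 15353 in depleted cells and 30769 and 18100 in control cells. The epithelial adhesion genes EPCAM (0.71, adjusted p = 0.0884) and CDH1 (0.21, adjusted p = 0.324) had higher signals in all 3 depleted arrays than in any control array. All 7 epithelial markers were tested by limma and 0 passed. At an unadjusted limma p under 0.05 KRT8 was lower and EPCAM and CDH1 higher, or 42.9% of the 7 against 15.0% of all genes. The KRT8 groups did not overlap either, with every depleted signal below every control signal. Summed signals of 7 leukocyte markers were 616.8 to 648.4 in depleted and 615.4 to 731.2 in control arrays. Those of 6 fibroblast markers were 786.5 to 964.9 and 602.5 to 798.7, and those of 5 endothelial markers 286.4 to 394.6 and 212.4 to 314.1. Sums of 6 alveolar type 2 markers, of which 4 were bright enough for testing, were 900.1 to 1155 and 947.0 to 1071. Of these other markers 12 were tested and 0 passed. In RNA from a whole culture, fewer cells of a kind and less RNA per cell cannot be told apart.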

How the data were processed

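Total RNA of 3 NME2-depleted and 3 control A549 samples was labelled and hybridised by the authors to 1 array each. The deposited file holds 1 linear intensity for each probe set and array, and GCOS 1.1.1 is named in the submitters' processing notes. The authors had scaled all arrays to 1 trimmed mean (500.1). Arrays have no read depth, and their number limits the precision.

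Of 54675 probe sets 62 controls were left out. A floor of 1 was applied before the log2 step, and no second normalization. The brighter 27307 probe sets, whose mean log2 signal reached the median (a signal of 71.7), entered a two-sided limma fit (lmFit, then eBayes with an intensity trend; limma 3.58.1, R 4.3.3) with Benjamini-Hochberg adjustment over all of them and a threshold of 0.05. Gene symbols came from the platform annotation, looked up again by gene identifier, and probe sets with several symbols named no gene, apart from the 1 for NME2. The procedure was tested on simulated data with independent noise and known changes. That test required recovery of its largest changes only, so it is no guide to how often differences of the size seen here would be found. The members and lists were chosen with earlier results of these data known. Signals in every array are given for NCL, NPM1 and FBL and for the 3 members of lowest p in each role group, for other lists of the pathway the 2 genes of lowest p, and for the ribosomal proteins, context and marker lists at most 3 genes, MYC always. KRT18 was added to these, and it and the second probe sets were chosen after their values were seen. The alternatives were other scalings (quantile, median centring, cyclic loess), an offset of 16, other filters, variance models, array weights, the replicate block, other gene values, the methods' t-test and each array left out.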

Additional observations from a re-analysis of the deposited data

How the results depend on the processing

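The number of arrays, 3 per group, limits the precision of every value. In 17 of 19 alternatives, among them all scalings, filters and variance models and each array left out, 0 factors passed. The exceptions were the replicate block, with 1 lower (BYSL, adjusted p = 0.0261), and the methods' t-test before adjustment, with 2 lower. These are 3.03% and 6.06% of the factors, where 2.29% and 12.9% of all genes passed under the same settings. In no alternative did a factor pass as higher. For the other genes of the pathway the same settings gave 1 (RRP1B, adjusted p = 0.0429) and 15, or 0.80% and 12% of 125. Under the 17 settings where 0 factors passed, few genes of any kind did. The share of all genes was 0 with no intensity trend and with the adjusted t-test, and 0.0403% to 0.314% with an array left out. At most it was 1.36%, with the filter at the 75th percentile. A count of 0 factors was likely under such settings and says little about stability. Over all tested probe sets, arrays with the same number deviated together only weakly (correlations of deviations 0.114, 0.0805 and 0.0702). Every array still correlated best with its own number. Some genes moved with the number: 3, 21 and 52 of 53 ribosomal proteins lay above their own mean in depleted replicates 1 to 3. In control replicates 1 to 3 the counts were 1, 30 and 50. The main fit did not take the numbers to pair the samples, so movement shared by number counted there as spread within groups. Genes of all kinds past the threshold went from 67 to 284 with the block. The median difference of the factors was -0.11 with median centring, which moved the median of all genes to -0.05. It was -0.020 with the mean of the probe sets of a gene, and -0.022 for the 25 factors left without probe sets ending in _x_at or _s_at. It ran from -0.098 to -0.014 with each array left out. The NME2 difference of -2.78 missed the threshold with no intensity trend (adjusted p = 0.228) and with the methods' t-test after adjustment (0.204), settings under which 0 of 12406 genes passed. It ran from -2.96 to -2.50 with each array left out. The replicate block, the brightness filters, the fit without an intensity trend and the t-tests left these differences as they were, so they could not alter a sign. Of 17 factors described array by array 13 kept their sign in every alternative. The others were POLR1C (0.021 without _x_at and _s_at probe sets), NCL (-0.030 with median centring, -0.0096 to 0.049 with arrays left out), NPM1 (-0.0021, and -0.020 to 0.098) and PA2G4 (-0.14 to 0.00025 with arrays left out). The cause was not tested.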
